A study of Mus musculus with 43 samples.

Results

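The transcriptome of the whole mouse testis at postnatal day 7 (P7) was compared between Prmt1-dKO and WT animals. The comparison takes the bulk RNA-seq libraries that the labels mark as day 7, 3 of Prmt1-dKO and 3 of WT testes, which makes 6 of the 43 samples of the series. Prmt1-dKO stands for Ddx4-CreERT2; Prmt1 lox/lox mice of the C57BL/6J background after tamoxifen on 3 consecutive days. In this line exons 4 and 5 of Prmt1 are floxed, and a knock-in at Ddx4 drives the tamoxifen-inducible Cre together with HA-tagged Ddx4 and EGFP, so that recombination is directed to germ cells. The controls are labelled WT. The design text gives 3 days of tamoxifen for WT and knockout samples together, while the labels mark the treatment of the WT libraries NULL, and no source used here says whether these controls carried the Cre knock-in. The deletion and the knock-in therefore cannot be told apart in any difference below. If the controls were injected as the design text reads, both genotypes share the drug, and if not, its part cannot be told apart either. No source used here says whether testes of several animals were pooled, and the p-values measure the spread between these libraries.

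The testis at P7 holds seminiferous tubules, in which spermatogonia lie among Sertoli cells, wrapped by peritubular myoid cells. Between the tubules lie vessels, macrophages, fibroblasts and Leydig cells, which turn cholesterol into androgens. PRMT1, the enzyme that places most asymmetric dimethylarginine on proteins, is made in nearly all of these cells, whereas the Cre acts in germ cells. In bulk RNA a lower level can come from fewer cells of a type or from less RNA per cell, and these cannot be told apart.

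The labels name spermatogonia as the cell type, but the libraries are of whole testis. The Leydig cell hormone Insl3 was at 279, 277 and 339 TPM (a level per transcript length, on a common total) in WT testes and at 0 in both libraries of sorted spermatogonia labelled WT, which were made by Smart-seq2, a different protocol, and normalized on their own. By the study's methods the control animals for sorting were heterozygous for the floxed allele and carried the Ddx4 knock-in, although the labels call these libraries WT. The Sertoli cell hormone Amh was at 686, 567 and 721 TPM in WT testes and at 2.44 and 1.79 TPM in the sorted cells.

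Library totals lay between 12396345 and 16598249 expected counts. Counts were scaled to CPM (each library's counts set to a common total), and a gene was called higher or lower in Prmt1-dKO when edgeR's quasi-likelihood test gave a Benjamini-Hochberg adjusted p below 0.05 and the fold change was at least 2. Of 16554 genes tested, 881 were called higher, which is 5.32%, and 294 were called lower, which is 1.78%. These percentages are the background for every count of calls. The median log2 fold change of all genes tested was 0.02. The Prmt1-dKO libraries spread more than the WT libraries. Pairs of WT libraries had 399 to 431 tested genes over 2-fold apart, and pairs of Prmt1-dKO libraries had 669 to 1490. Prmt1-dKO replicate 2 was the highest Prmt1-dKO library in 521 of the 881 genes called higher, replicate 3 in 262 and replicate 1 in 98. Prmt1 itself was at 237, 219 and 247 CPM in WT and at 146, 199 and 158 CPM in Prmt1-dKO testes. Its levels did not overlap between the genotypes, with a log2 fold change of -0.49 (SE 0.13, edgeR adjusted p = 0.0334), less than the 2-fold of a call. Without any 1 library other than Prmt1-dKO replicate 2 the adjusted p was 0.0696 to 0.105. The count covers the whole gene and not the floxed exons alone.

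The genotypes also differed in how many weakly expressed genes were seen. Between 22341 and 22555 genes had a count in the WT libraries and between 24052 and 24487 in the Prmt1-dKO libraries, although the latter were not deeper. The fragment length that the tables imply was 262 to 264 bases in WT and 272, 254 and 245 bases in Prmt1-dKO. Of the 881 genes called higher, 620 had a mean under 50 counts, against 85 of the 294 called lower. Among protein-coding genes with a mean under 1 CPM, 17.5% were called higher, while among those over 100 CPM 0.317% were. Restricted to multi-exon protein-coding genes with a mean of at least 50 counts, a set chosen after the values were seen, the calls were even, with 193 higher and 195 lower of 12233 genes.

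**Figure D1:**
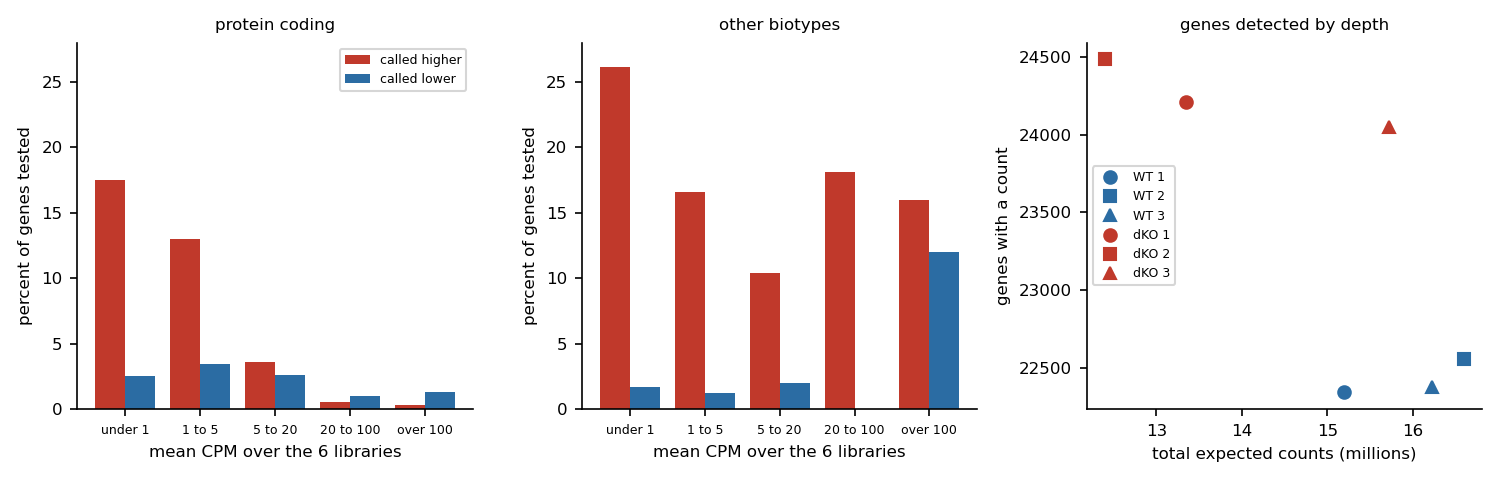
Percent of genes tested that were called higher (red) or lower (blue) in Prmt1-dKO, by mean CPM over the 6 libraries, for protein-coding genes (left) and other biotypes (middle), and the number of genes with a count against the total expected counts of each library (right, axes not from 0). Among protein-coding genes calls of higher genes are most frequent at low CPM, which the other biotypes show only in part, and the 3 Prmt1-dKO libraries (24052 or more genes) lie above the 3 WT libraries (22555 or fewer).

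Non-coding and pseudogene transcripts were called higher more often than all genes tested, but they are also weakly expressed. At a mean of 1 to 5 CPM, 16.6% of the genes of other biotypes and 13% of protein-coding genes were called higher, and under 1 CPM 26.1% and 17.5%. The shares were 10.4% and 3.61% at 5 to 20 CPM, 18.1% (of 72 genes) and 0.517% at 20 to 100 CPM, and 16% (of 25 genes) and 0.317% above 100 CPM. Of 326 genes annotated TEC (transcribed regions whose status the annotators have yet to settle), 114 were called higher and 4 lower (median log2 fold change 0.74). Of 317 lincRNA genes, 64 were higher and 6 lower, and of 363 antisense genes 55 were higher and 2 lower. Processed pseudogenes gave 30 higher and 1 lower of 283, and processed transcripts gave 36 higher and 3 lower of 239. Protein-coding genes at all levels gave 543 higher (3.69%) and 265 lower (1.8%) of 14730. TEC genes took 0.0556% to 0.0621% of all counts in WT and 0.105% to 0.119% in Prmt1-dKO libraries. The share of lincRNA genes was 0.362% to 0.371% in WT and 0.457% to 0.459% in Prmt1-dKO libraries.

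Several named non-coding genes rose at higher counts. The snoRNA host genes Snhg12 and Zfas1, whose introns carry small nucleolar RNAs, were among them. Snhg12 was at 7.89, 8.83 and 10.1 CPM in WT and at 24.2, 22.7 and 34.4 CPM in Prmt1-dKO testes (log2 fold change 1.6, SE 0.19, edgeR adjusted p = 0.00173). Zfas1, a processed transcript outside the rule for named genes and chosen after its values were seen, was at 25.7, 20.3 and 31.0 CPM in WT and at 61.8, 82.3 and 101 CPM in Prmt1-dKO testes (log2 fold change 1.67, SE 0.21, edgeR adjusted p = 0.00192). Fendrr, a long non-coding RNA transcribed next to Foxf1, was at 2.01, 1.90 and 1.57 CPM in WT and at 6.57, 6.45 and 9.77 CPM in Prmt1-dKO testes (log2 fold change 2.06, SE 0.26, edgeR adjusted p = 0.00192). In each of these genes every Prmt1-dKO library lay above every WT library.

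Olfactory and vomeronasal receptor genes, which encode chemoreceptors of the nose and are mostly silent elsewhere, were detected in larger number in Prmt1-dKO libraries. This family was chosen after its values were seen. Of 1420 such genes, 68, 71 and 67 had a count in the WT libraries and 258, 286 and 271 in the Prmt1-dKO libraries. Their summed level was 20.2, 20.8 and 20.7 CPM in WT and 113, 177 and 134 CPM in Prmt1-dKO testes. Only 39 of them were tested, and a gene at 0 in WT could pass the filter only through the Prmt1-dKO libraries and so had to differ. Vmn2r76, for example, was at 0 counts in WT throughout, while its counts were 51, 88 and 79 in Prmt1-dKO. The counts were spread over many genes.

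Across all biotypes, 276 genes had 0 counts in all 3 WT and at least 5 counts in each Prmt1-dKO library, whereas 4 genes (Onecut1, Zfp648, Cnga1 and Cyp11b1) showed the reverse. The 276 comprised 87 protein-coding genes, 68 TEC genes and 56 processed pseudogenes, and 138 of them have a single exon, against 7.25% of the genes tested. Of the genes called higher 22.3% have a single exon and of those called lower 7.48%. Ribosomal RNA moved the other way. An rRNA gene on chromosome 17, CT010467.1, was at 10150, 8952 and 9297 CPM in WT and at 3042, 2260 and 5261 CPM in Prmt1-dKO testes. The mitochondrial rRNA genes mt-Rnr1 and mt-Rnr2 together took 0.0966% to 0.1% of counts in WT and 0.026% to 0.0461% in Prmt1-dKO libraries. These signs of library make-up move with the genotype, and their part in the results below was not tested.

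Of the calls, 258 higher and 209 lower genes averaged 50 counts or more without overlap of the genotypes, and the 12 with the largest fitted change in each direction are named here. The increases range from genes that were very uneven among Prmt1-dKO testes to genes that were more even. Uneven were Sprr2a2 (a cornified envelope protein), Apoa1 and Apoc2 (apolipoproteins), Klk1 (a kallikrein), Cfd (complement factor D) and Dcdc2a (a doublecortin-domain protein). The counts of Cfd were 0, 0 and 15 in WT against 28, 480 and 68 in Prmt1-dKO, and those of Apoc2 were 2, 4 and 4 against 64, 17 and 255. The second Prmt1-dKO testis was highest for Klk1, Cfd and Dcdc2a, and the third for Sprr2a2, Apoa1 and Apoc2. Other apolipoprotein genes, Apob and Apoc3, were under the filter and also highest in the third, with counts of 6, 5 and 3 in WT against 52, 2 and 242 for Apob and 0, 0 and 0 against 9, 0 and 93 for Apoc3. The same held for Cyp3a13, a drug-metabolizing cytochrome P450, with 0, 0 and 0 against 21, 0 and 86 counts. Hepatocyte genes summed to 17.5, 16.9 and 19.0 CPM in WT and to 20.6, 20.8 and 37.4 CPM in Prmt1-dKO testes, while the defining hepatocyte genes Alb and Ttr had 0 to 2 counts. Cfd belongs to the adipocyte list, whose sum was highest in the second Prmt1-dKO library. Their part in these calls was not tested. Sprr2a2, Apoa1, Apoc2, Klk1, Cfd, Dcdc2a and Ptpn5 would not have passed the filter on the WT libraries alone and so had to differ. The calls of Apoa1, Cfd and Dcdc2a were lost in some settings, that of Cfd also in DESeq2 (adjusted p = 0.0852). Without WT replicate 1, edgeR gave adjusted p = 0.0563 for Apoa1, 0.0855 for Cfd and 0.0644 for Dcdc2a. Without WT replicate 2 the values were 0.0523, 0.0909 and 0.0722, and without WT replicate 3 that of Apoa1 was 0.0521.

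The more even increases were of other kinds. Foxl2, the transcription factor that maintains granulosa cells of the ovary, was at 0.602, 0.674 and 0.629 CPM in WT and at 9.05, 16.5 and 7.42 CPM in Prmt1-dKO testes, where it remained a weakly expressed gene (log2 fold change 4.09, SE 0.38, edgeR adjusted p = 0.000685). It would not have passed the filter on low counts by its WT libraries and so had to differ. Ampd3, an AMP deaminase, was at 8.83, 8.64 and 9.30 CPM in WT and at 105, 77.9 and 106 CPM in Prmt1-dKO testes (log2 fold change 3.43, SE 0.15, edgeR adjusted p = 2.52e-05). Adm, which encodes the vasodilator peptide adrenomedullin, was at 1.67, 1.59 and 1.82 CPM in WT and at 17.6, 18.4 and 16.1 CPM in Prmt1-dKO testes (log2 fold change 3.35, SE 0.17, edgeR adjusted p = 4.07e-05). Each of the 3 genes was more than 8-fold apart between the lowest Prmt1-dKO and the highest WT library. Thbs4 (a matrix thrombospondin), Ptpn5 (a tyrosine phosphatase) and Gdpd2 (a glycerophosphodiester phosphodiesterase) completed the 12, with log2 fold changes of 3.68, 3.26 and 2.74. Adm and Ampd3 lie close to each other on chromosome 7 of GRCm38, chr7:110627661-110629820 and chr7:110768206-110812405, both on the plus strand.

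The 12 genes with the largest decrease were led by Ren1, Cyp17a1 and Insl3, products of Leydig cells. Aldh3a1, an aldehyde dehydrogenase, was at 7.49, 7.29 and 7.67 CPM in WT and at 0.365, 1.35 and 0.254 CPM in Prmt1-dKO testes (log2 fold change -3.55, SE 0.46, edgeR adjusted p = 0.00207). Aldh3a1, Ren1, Abcb5 and Aff2 would not have passed the filter on the Prmt1-dKO libraries alone and so had to differ. Kcnk3, a background potassium channel, was at 55.9, 59.5 and 54.6 CPM in WT and at 9.85, 12.4 and 7.17 CPM in Prmt1-dKO testes (log2 fold change -2.54, SE 0.18, edgeR adjusted p = 0.000272). Tubb3, a beta tubulin best known from neurons, was at 108, 103 and 120 CPM in WT and at 19.3, 24.5 and 16.8 CPM in Prmt1-dKO testes (log2 fold change -2.45, SE 0.16, edgeR adjusted p = 0.000119). In Kcnk3 and Tubb3 the libraries of each genotype lay close together. Cyp11a1, Abcb5, Aff2, Angptl7, Ulbp1 and Drd4 followed, with log2 fold changes between -2.34 and -2.25. Abcb5, a transporter, kept its call in 7 of 12 alternative settings, with edgeR adjusted p between 0.0569 and 0.0832 when a WT library or Prmt1-dKO replicate 1 was left out and 0.0632 in DESeq2.

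**Figure D2:**
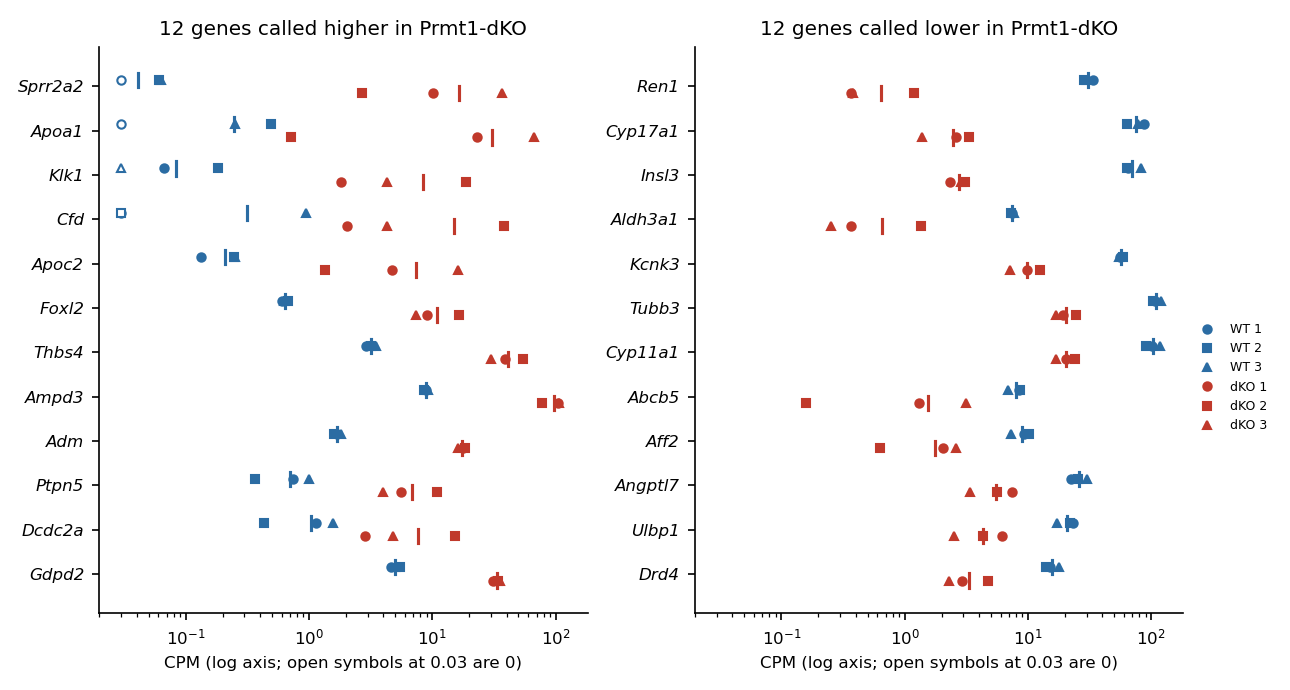
CPM on a log axis of the 12 genes per direction with the largest fitted change, one symbol per library (blue WT, red Prmt1-dKO) with a bar at the group mean, and open symbols where the count was 0. Most genes called lower form tight groups in WT, while the upper rows of the left panel spread over more than 10-fold among Prmt1-dKO testes.

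Leydig cell products differed by unequal amounts. Of 9 tested Leydig cell genes, 5 were called lower and none higher (median log2 fold change -1.92). Besides Ren1, Cyp17a1 and Insl3 these were Cyp11a1, the enzyme that makes pregnenolone from cholesterol, and Star, which carries cholesterol into mitochondria. Cyp11a1 was at 102, 90.9 and 117 CPM in WT and at 20.4, 23.9 and 17 CPM in Prmt1-dKO testes, and Star was at 37.1, 40.6 and 60.7 CPM against 13.4, 9.24 and 13.8 CPM. The other 4 members differed less. Hsd3b1, the next enzyme of the pathway, was at 171, 168 and 186 CPM in WT and at 144, 155 and 133 CPM in Prmt1-dKO testes (edgeR adjusted p = 0.0907), and Nr5a1, the transcription factor SF-1 of steroid-making cells, was at 307, 280 and 302 CPM against 246, 269 and 230 CPM (edgeR adjusted p = 0.116). Lhcgr, the receptor for luteinizing hormone, lay higher in all Prmt1-dKO testes, at 26.3, 21.7 and 25.1 CPM against 16.7, 11.7 and 16.9 CPM in WT, a log2 fold change of 0.69 (SE 0.17, edgeR adjusted p = 0.0223) that is under 2-fold.

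Adrenocortical enzymes were also detected. Cyp21a1, a steroid hydroxylase, was called lower, with counts of 64, 31 and 35 in WT against 1, 0 and 0 in Prmt1-dKO (edgeR adjusted p = 0.00179), having passed the filter through the WT libraries alone, so that it had to differ. Cyp11b1, another steroid hydroxylase, was under the filter, with counts of 10, 26 and 9 in WT and 0 in every Prmt1-dKO library, which allows up to 3 counts per library. Akr1b7 and Mrap, the other tested genes of the adrenocortical list, were not called, with log2 fold changes of -0.06 and 0.59, and Cyp11b2 and Mc2r had 0 to 13 counts in any library.

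Most genes of cholesterol synthesis and uptake lay lower in Prmt1-dKO testes, 23 of them without overlap of the genotypes, where 19.9% of all genes tested lay lower without overlap. Of 25 genes listed, all were tested, 9 were called lower and none higher, and 25 had a negative log2 fold change (median -0.93). Along the synthesis route, Hmgcs1, which makes HMG-CoA, was at 316, 294 and 286 CPM against 146, 115 and 136 CPM (log2 fold change -1.18, SE 0.12, edgeR adjusted p = 0.000992). No Prmt1-dKO value of this gene reached the lowest WT value.

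Idi1, which isomerizes isopentenyl diphosphate, was at 85.4, 87.0 and 80.1 CPM in WT and at 33.9, 29.4 and 33.4 CPM in Prmt1-dKO testes (log2 fold change -1.38, SE 0.11, edgeR adjusted p = 0.000362). Sqle (squalene epoxidase), Cyp51 (lanosterol demethylase), Msmo1 and Mvk (mevalonate kinase) were called lower too, with log2 fold changes of -1.49, -1.52, -1.27 and -1.25. Srebf2, the transcription factor that switches these genes on when sterols are low, had a log2 fold change of -0.75 (341, 354 and 330 CPM against 224, 204 and 180 CPM, edgeR adjusted p = 0.00322), and Insig1, which holds it back, one of -0.93 (edgeR adjusted p = 0.0024). Sc5d, at 27.2, 26.5 and 24.1 CPM against 24.9, 22.9 and 28.2 CPM, and Pmvk overlapped between the genotypes. Scarb1, the receptor for high-density lipoprotein through which steroid-making cells take up cholesterol esters, was at 216, 213 and 208 CPM against 151, 152 and 148 CPM (log2 fold change -0.50, edgeR adjusted p = 0.00717).

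Since these genes moved together, their promoters were searched for the letters CACCCCAC of the sterol regulatory element, a motif chosen after the values were seen, on both strands of 300 bases around the start (250 before to 50 after, RefSeq windows on GRCm38.p6). Of 16 cholesterol genes with a window, 2 (12.5%) held it, Hmgcs1 and Acat2, against 3.85% of the 11996 tested genes with a window. The match in Hmgcs1 begins 136 bases before the start, and the 150 bases before the start (chr13:119690201-119690350, plus strand, upstream of the transcript) are shown with the match in capitals because this gene joins the motif with one of the larger changes in level.

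Hmgcs1: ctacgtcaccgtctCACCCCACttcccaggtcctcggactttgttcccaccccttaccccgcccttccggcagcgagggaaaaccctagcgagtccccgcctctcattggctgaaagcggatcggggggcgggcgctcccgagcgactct

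Other motifs were searched in the same windows. The element CAAGGTCA of SF-1 was in 1.35% of the windows of all genes tested, 1.29% of those called higher and 1.51% of those called lower, and its core AAGGTCA in 3.98%, 4.96% and 4.02%. The cyclic AMP response element TGACGTCA was in 3.34%, 1.94% and 1.51%. Of the 16 cholesterol genes with a window, 2 (12.5%), Dhcr7 and Hmgcs1, held the SF-1 core, as many as held the letters of the sterol regulatory element. The longer SF-1 element was in 1 of them (6.25%), Dhcr7. The palindromic estrogen response element, the letters GGTCANNNTGACC, was in 2 of 11996 windows and in none of the 464 windows of genes called higher or the 199 of genes called lower. A motif this rare would hardly appear in so few windows, so its absence from them decides nothing. None of the 6 Leydig cell genes with a window held any of these letters, but 6 windows are too few to judge motifs of these frequencies.

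Estrogen-responsive genes bear on the tamoxifen question, since tamoxifen acts on estrogen receptors, as an antagonist in some tissues and an agonist in others such as the uterus. Of 22 listed genes 15 were tested, 4 were called higher and none lower (median log2 fold change 0.31). The receptors themselves were not called. Esr1 was at 22.8, 25.1 and 26.6 CPM in WT and at 20.9, 17 and 21.8 CPM in Prmt1-dKO testes (edgeR adjusted p = 0.141), and Esr2 at 4.35, 3.25 and 4.27 CPM against 3.65, 2.31 and 4.44 CPM. Pgr, the progesterone receptor and a classical estrogen target, was at 2.21, 2.33 and 2.64 CPM in WT and at 8.98, 7.65 and 8.44 CPM in Prmt1-dKO testes (log2 fold change 1.80, SE 0.20, edgeR adjusted p = 0.00133). Ramp3, a receptor co-factor for adrenomedullin, was at 3.21, 3.37 and 4.02 CPM against 9.49, 16.7 and 12.4 CPM (log2 fold change 1.86, SE 0.24, edgeR adjusted p = 0.00207). Complement C3 was at 7.76, 6.07 and 11.9 CPM against 22.8, 68.3 and 22.4 CPM, and its call was lost without WT replicate 1 or 2 (edgeR adjusted p = 0.0538 and 0.0566). Klk1, with 1, 3 and 0 counts against 25, 237 and 68, was the fourth, but it passed the filter through the Prmt1-dKO libraries alone and so had to differ.

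The other 11 tested members were not called. Muc1, at 1.34, 0.858 and 1.45 CPM in WT against 2.12, 1.99 and 2.22 CPM, and Ctsd, at 307, 306 and 355 CPM against 358, 444 and 360 CPM, lay higher without overlap (edgeR adjusted p = 0.112 and 0.17). Lcn2 had a log2 fold change of 2.09 with overlap (edgeR adjusted p = 0.0906). Greb1, an estrogen target in many tissues, was at 111, 96.3 and 77.6 CPM in WT and at 133, 90.6 and 129 CPM in Prmt1-dKO testes, with overlap. Igf1 was at 189, 177 and 185 CPM against 126, 132 and 166 CPM, and the uterine genes Ltf, Sprr2b, Sprr2e, Sprr2f and Tff1 had 0 to 14 counts in any library, unlike their relative Sprr2a2 of the squamous epithelium list, with counts of 0, 1 and 1 against 140, 34 and 579. Drug-handling genes gave no call in either direction in the main fit, and up to 3 were called higher in other settings. Cyp3a13, with counts of 0, 0 and 0 in WT against 21, 0 and 86 in Prmt1-dKO, was under the filter. So was Cyp3a11, with 0, 0 and 0 against 1, 0 and 15. Of 22 tested genes of the xenobiotic and antioxidant response list (median log2 fold change 0.03), Abcb1a, a drug efflux pump, came closest, at 8.76, 7.66 and 7.1 CPM in WT and at 16.9, 10.4 and 19.2 CPM in Prmt1-dKO testes (log2 fold change 0.99, edgeR adjusted p = 0.0179), followed by Fmo1, a flavin monooxygenase, with 0.92. At an adjusted p below 0.05 without the fold limit the list held 7 genes, 5 higher and Gsta2 and Gsta4 lower, where 10.6% of all genes tested were higher and 8.51% lower at that threshold. None of the 13 tested receptors for other hormones was called, although Thra, Vdr, Ghr and Lhcgr had an adjusted p below 0.05, with log2 fold changes of -0.39, -0.58, 0.67 and 0.69.

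The renin-angiotensin list, to which Ren1 belongs, moved in both directions. Ace, which makes angiotensin II, was at 105, 106 and 103 CPM in WT and at 44.7, 43.1 and 43.2 CPM in Prmt1-dKO testes (log2 fold change -1.26, SE 0.10, edgeR adjusted p = 0.000362). Enpep, the aminopeptidase that breaks angiotensin II down, was at 22.3, 21.7 and 22.1 CPM against 60.7, 45.0 and 50.7 CPM (log2 fold change 1.24, SE 0.13, edgeR adjusted p = 0.00126). The WT libraries agreed closely in both genes. Agt, the precursor, and the receptors Agtr1a and Agtr2 overlapped between the genotypes. Of the insulin-like peptides and their partners, Insl3 and Igfbp5, a binding protein at 109, 93.2 and 95.3 CPM against 45.2, 50.7 and 27.2 CPM, were called lower among 14 tested. The binding protein Igfbp3 was at 114, 117 and 125 CPM against 194, 181 and 185 CPM (log2 fold change 0.65, edgeR adjusted p = 0.00321).

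Hormones of the TGF-beta family that Sertoli cells make were lower by unequal amounts. Amh, which makes the Mullerian duct regress, was at 618, 506 and 683 CPM in WT and at 162, 233 and 124 CPM in Prmt1-dKO testes (log2 fold change -1.80, edgeR adjusted p = 0.00184). Inha, the inhibin alpha subunit, was at 756, 641 and 772 CPM against 443, 486 and 484 CPM, a log2 fold change of -0.62 (edgeR adjusted p = 0.00664), and Inhbb had one of -0.54. Inhba, the activin beta A subunit, was called lower, at 74.2, 65.8 and 59.8 CPM against 26.9, 14.0 and 38.7 CPM, and lost the call without WT replicate 1, WT replicate 2 or Prmt1-dKO replicate 1 (edgeR adjusted p = 0.0605, 0.0523 and 0.0507). Bmp4 was called higher, with log2 fold changes of 1.16 and, without Prmt1-dKO replicate 2, 0.94, and the BMP target Id1 was at 26.7, 25.4 and 31.7 CPM against 50.8, 68.7 and 46.8 CPM (log2 fold change 0.99, edgeR adjusted p = 0.00479). Of 11 tested Sertoli cell genes only Amh was called, and 10 had a negative log2 fold change, among them Sox9, at 218, 227 and 228 CPM against 168, 126 and 149 CPM. The FSH receptor Fshr overlapped, at 32.7, 36.8 and 35.4 CPM against 33.9, 28.9 and 33.0 CPM.

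Wnt4, Rspo1 and Fst, which act in the ovary like Foxl2, were not called. Wnt4 was at 9.97, 8.46 and 11.6 CPM in WT and at 17.6, 30.3 and 9.13 CPM in Prmt1-dKO testes, with overlap, and Rspo1 at 7.56, 7.11 and 8.30 CPM against 8.17, 14.2 and 5.58 CPM. Fst, follistatin, was at 7.96, 8.27 and 7.48 CPM against 9.85, 10.3 and 11.7 CPM (log2 fold change 0.43, edgeR adjusted p = 0.0863). Within the Wnt list of 26 tested genes, Rnf43, which removes Wnt receptors from the surface, and Sp5, a Wnt target, were called higher, while Axin2, the usual readout, was at 35.7, 34.1 and 32.2 CPM against 41.3, 30.6 and 29.5 CPM. Sp5 lay at a log2 fold change of 1.01 and lost the call in 5 of 12 alternative settings.

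The extracellular matrix was split. Of 36 genes tested, 5 were called lower and 1 higher (median log2 fold change -0.27). The elastic fibre protein Eln was at 879, 908 and 967 CPM in WT and at 363, 427 and 242 CPM in Prmt1-dKO testes (log2 fold change -1.42, SE 0.19, edgeR adjusted p = 0.0023). The basement membrane collagen Col18a1 was at 609, 560 and 595 CPM against 251, 282 and 186 CPM (log2 fold change -1.29, SE 0.15, edgeR adjusted p = 0.00161). Both lay lower in every Prmt1-dKO testis. So did the basement membrane genes Hspg2, Col4a1, Col4a2 and Lama1, which missed the 2-fold limit, with log2 fold changes of -0.94, -0.78, -0.79 and -0.73. Further basement membrane genes of the list, among them the laminins Lama2 and Lamb1, are counted but not shown here.

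Among fibril-forming collagens Col1a2 and Col3a1 went the other way. Col1a2 was at 2750, 2920 and 3060 CPM in WT and at 4670, 4350 and 4130 CPM in Prmt1-dKO testes (log2 fold change 0.59, edgeR adjusted p = 0.00646), and Col3a1 at 2570, 2750 and 2960 CPM against 4360, 4550 and 3970 CPM (log2 fold change 0.64, edgeR adjusted p = 0.00556). Col1a1, the partner chain of Col1a2, overlapped between genotypes at 2930, 3110 and 3310 CPM against 2850, 3090 and 2140 CPM. Col5a2 lay higher and Col5a1 lower without overlap, with log2 fold changes of 0.30 and -0.24 (edgeR adjusted p = 0.0863 and 0.142). Col15a1 and Vcan were called lower, and without Prmt1-dKO replicate 3 their log2 fold changes were -0.834 and -0.825, short of 2-fold. That of Vcan was also short of it without WT replicate 2, at -0.995. The summed level of the matrix list overlapped, at 21120 to 22380 CPM in WT and 19430 to 22580 CPM in Prmt1-dKO testes.

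Of contractile and other genes of the peritubular wall, all 8 genes had a negative log2 fold change (median -0.98) and 4 were called lower. Myh11, smooth muscle myosin, was at 276, 275 and 285 CPM in WT and at 105, 172 and 74.0 CPM in Prmt1-dKO testes (log2 fold change -1.25, edgeR adjusted p = 0.0109). Cnn1, calponin, was at 27.3, 27.8 and 26.8 CPM against 3.65, 14.3 and 3.68 CPM, and lost the call without WT replicate 1 or 2 (edgeR adjusted p = 0.0503 and 0.0528). Acta2 was at 599, 610 and 681 CPM against 229, 437 and 222 CPM, with log2 fold changes short of 2-fold, at -0.96 and -0.92, without Prmt1-dKO replicate 1 or 3. The fourth call was Actg2, a smooth muscle actin, at 16.4, 19.2 and 21.3 CPM against 3.87, 13.1 and 2.73 CPM (edgeR adjusted p = 0.0478), which was lost in 8 of 12 alternative settings, with edgeR adjusted p of 0.0902 to 0.126 without any 1 library other than Prmt1-dKO replicate 2. The list kept 2 calls without WT replicate 1, WT replicate 2, Prmt1-dKO replicate 1 or Prmt1-dKO replicate 3, and had 5 without Prmt1-dKO replicate 2. In each of these genes the second Prmt1-dKO testis was nearest to WT. Pericyte and vascular smooth muscle genes gave no call among 11 and a median of 0.73. Rgs5, a pericyte gene, was at 30.2, 33.2 and 28.7 CPM against 59.3, 57.7 and 49.5 CPM (log2 fold change 0.85, edgeR adjusted p = 0.00263). Of the same list Cspg4, the proteoglycan NG2, lay lower, at 55.7, 53.8 and 53.3 CPM against 28.3, 27.6 and 32.2 CPM (log2 fold change -0.89, edgeR adjusted p = 0.00184), as did Notch3, with -0.55 (edgeR adjusted p = 0.0546).

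Vascular endothelial genes tended to higher values without a call. Of 16 tested, 14 had a positive log2 fold change (median 0.38), and summed levels were 424, 422 and 429 CPM in WT and 492, 543 and 442 CPM in Prmt1-dKO testes. Pecam1, the junction protein CD31, was at 20.3, 20.3 and 17.8 CPM against 41.0, 36.6 and 35.6 CPM (log2 fold change 0.95, SE 0.12, edgeR adjusted p = 0.00199). Kdr, the main VEGF receptor, lay lower, at 59.7, 53.9 and 54.4 CPM against 46.3, 37.6 and 39.2 CPM (log2 fold change -0.45, edgeR adjusted p = 0.0297), and Cdh5 overlapped. Vegfa was at 31.9, 27 and 26 CPM against 48.5, 39.8 and 50.7 CPM (log2 fold change 0.71, edgeR adjusted p = 0.00815), whereas the hypoxia and glycolysis list to which it and Adm belong had a median of -0.10, with Adm its only call among 19. Thbd, thrombomodulin of the endothelial surface and other cells, was called lower, at 187, 186 and 186 CPM against 85.8, 64.0 and 52.6 CPM (log2 fold change -1.47, SE 0.17, edgeR adjusted p = 0.00136).

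Interstitial fibroblast genes gave no call among 14. Tcf21, a transcription factor of mesenchymal progenitors, was at 114, 107 and 123 CPM in WT and at 210, 193 and 218 CPM in Prmt1-dKO testes (log2 fold change 0.85, edgeR adjusted p = 0.00181), and the proteoglycan genes Dcn and Lum had log2 fold changes of 0.71 each. Pdgfra, at 402, 410 and 353 CPM against 349, 190 and 504 CPM, overlapped widely. Dpt, dermatopontin, lay lower, at 46.0, 44.0 and 46.6 CPM against 25.2, 38.1 and 28.9 CPM (log2 fold change -0.57, edgeR adjusted p = 0.0316), as did Nr2f2, with -0.31 (edgeR adjusted p = 0.141).

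Immune cell lists moved in different directions at low levels. Of the mast cell list 4 of 5 tested genes were called lower, among them the proteases Mcpt4 and Cma1. Mcpt4 was at 2.48, 1.96 and 2.51 CPM in WT and at 0.584, 0.717 and 0.254 CPM in Prmt1-dKO testes (log2 fold change -2.17, SE 0.41, edgeR adjusted p = 0.00774), and Cma1 at 2.54, 2.02 and 3.71 CPM against 0.511, 0.876 and 0.571 CPM (log2 fold change -2.08, edgeR adjusted p = 0.00722). Fcer1a, the defining IgE receptor chain, had 0 counts in all libraries, and Mcpt4 rests on 32 to 40 counts per WT library. Mcpt4, Cma1 and Cpa3 would not have passed the filter on the Prmt1-dKO libraries alone and so had to differ. Cpa3 lost its call without WT replicate 2 or 3 (edgeR adjusted p = 0.0515 and 0.0666). Tpsb2 lost it without any 1 library other than Prmt1-dKO replicate 2, with edgeR adjusted p of up to 0.171.

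The T cell gene Cd3g was called higher, its counts being 6, 11 and 11 in WT against 44, 83 and 37 in Prmt1-dKO (log2 fold change 2.75, SE 0.47, edgeR adjusted p = 0.00535). Cd3e and Cd4 were called too, but Cd3e lost the call without WT replicate 1 or 2 (edgeR adjusted p = 0.0711 and 0.0579) and Cd4 without any 1 library other than Prmt1-dKO replicate 2 (up to 0.146), and Cd3d, Cd8a and Cd2 of the same list were at 0 to 6 counts in every library. Neutrophil genes S100a8, S100a9 and Csf3r were the only 3 of 11 that passed the filter, and all were higher, while the defining genes Mpo, Elane, Camp and Ltf had 0 to 14 counts. They passed the filter through the Prmt1-dKO libraries and so had to differ, and Cd3g, Cd3e and Cd4 would not have passed it on the WT libraries alone. Without WT replicate 2 the edgeR adjusted p was 0.0719 for S100a9 and 0.159 for Csf3r. Macrophage genes gave 1 higher (Cd14) and 1 lower (Cx3cr1, with edgeR adjusted p of up to 0.104, without WT replicate 1) of 15, with Csf1r at 19.1, 24.2 and 30.1 CPM in WT and 27.1, 33.7 and 27.8 CPM in Prmt1-dKO testes.

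Complement genes leaned upward. Of 19 tested genes of the complement and coagulation list, 4 were called higher and 2 lower (median 0.40). Besides C3 these were Cfb, C4b and Plau, the urokinase protease, at 3.14, 3.80 and 4.02 CPM in WT and 8.54, 9.48 and 6.41 CPM in Prmt1-dKO testes (log2 fold change 1.15, edgeR adjusted p = 0.00845). Cfb and C4b lost the call without WT replicate 1 (edgeR adjusted p = 0.0567 and 0.0612) or 2 (0.0688 and 0.0605). Interferon-stimulated genes, antigen presentation genes and inflammatory cytokines gave no call among 20, 13 and 6 tested genes, with medians of 0.30, 0.19 and 0.50. Of these H2-K1, a class I molecule, was at 58.6, 42.8 and 51.7 CPM against 89.0, 122 and 71.7 CPM (log2 fold change 0.88, edgeR adjusted p = 0.0158). In other settings up to 2 interferon-stimulated, 1 antigen presentation and 3 inflammatory genes were called higher. Of the 20 listed inflammatory genes 14 were under the filter.

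Markers of tissues next to the testis were uneven among the Prmt1-dKO libraries. Of 15 tested genes of the rete testis and efferent duct list, 4 were called higher and 1 lower (median 1.09), and summed levels were 257, 250 and 287 CPM in WT and 261, 445 and 286 CPM in Prmt1-dKO testes. Only the second Prmt1-dKO library stood apart in that sum. Krt18, a keratin of simple epithelia, was at 5.82, 5.33 and 8.42 CPM against 18.5, 47.6 and 30.5 CPM (log2 fold change 2.30, SE 0.33, edgeR adjusted p = 0.00302), and Aqp1, a water channel also of endothelium, at 4.88, 5.09 and 4.59 CPM against 14.3, 19.0 and 13.6 CPM (log2 fold change 1.68, SE 0.18, edgeR adjusted p = 0.00129). The other calls of this list, Krt8 and Ehf higher and Pax2 lower, were each lost without WT replicate 1 (edgeR adjusted p = 0.0503, 0.0625 and 0.101), and Ehf would not have passed the filter on the WT libraries alone. Adipocyte genes summed to 63.4, 59.1 and 75.9 CPM in WT and to 52.9, 187 and 61.3 CPM in Prmt1-dKO testes, and haemoglobin and other erythroid genes to 734, 1064 and 738 CPM against 783, 2402 and 719 CPM. The second library was again the high one. Of 11 epididymal genes 2 were tested. Crisp1 was called lower, its counts being 54, 34 and 112 in WT against 6, 10 and 6 in Prmt1-dKO, but it passed the filter through the WT libraries and so had to differ, and Cst8 had a log2 fold change of -0.87, while the others had 0 to 13 counts in any library. Krt5 and Krt14 of stratified epithelium had 54 and 109 counts in the second Prmt1-dKO library and 0 to 22 in the rest. The part of such tissue in the calls was not tested.

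**Figure D3:**
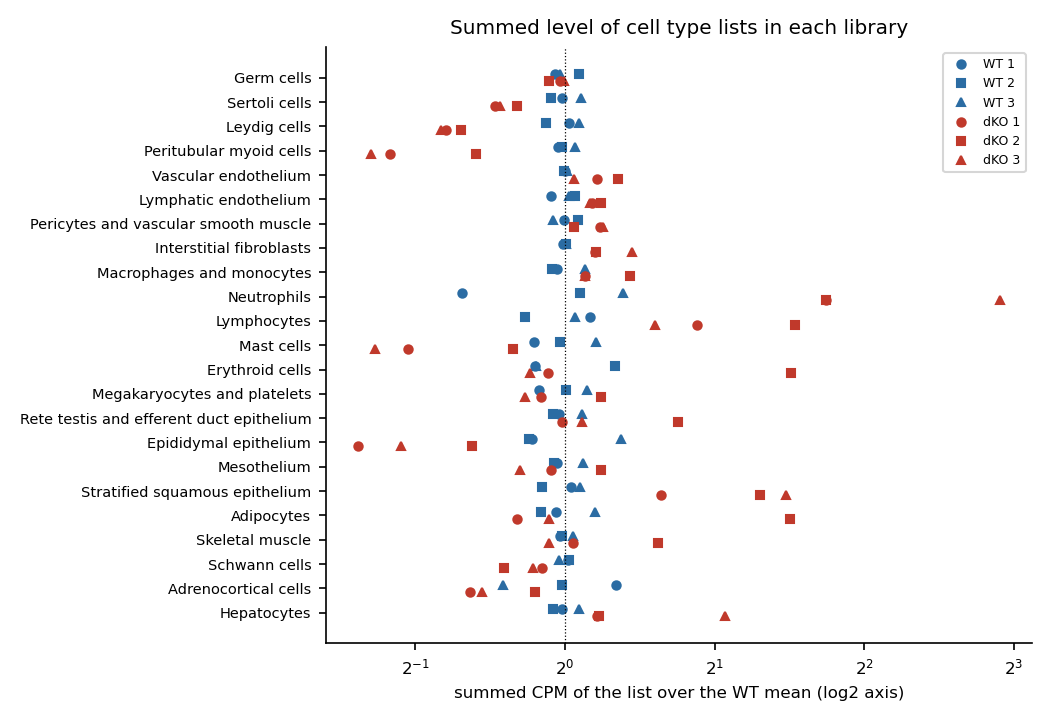
Summed CPM of each cell type list in each library, divided by the mean of the WT libraries, on a log2 axis (blue WT, red Prmt1-dKO). Sertoli, Leydig and peritubular sums lie below WT in all 3 Prmt1-dKO testes, whereas erythroid, adipocyte, rete testis and skeletal muscle sums stand out in Prmt1-dKO replicate 2 alone.

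Germ cell genes did not move as a list. None of 16 was called, the median log2 fold change was 0.05, and summed levels were 2031, 2272 and 2080 CPM in WT and 2074, 1979 and 2113 CPM in Prmt1-dKO testes. Ddx4, the locus of the knock-in, was at 148, 169 and 147 CPM against 106, 74.4 and 112 CPM (log2 fold change -0.67, edgeR adjusted p = 0.0184). Of the genes tested, 61.7% had at least 1 TPM in both libraries of sorted spermatogonia labelled WT, against 16.3% of those called higher and 27.6% of those called lower. In WT whole testis 90.5% of the genes called lower and 38.6% of those called higher reached a mean of 1 TPM, against 89.5% of all genes tested. Of the 24 genes with the largest changes, only Tubb3, at 11.6 and 8.55 TPM, and Ampd3, at 6.45 and 1.22 TPM, had at least 1 TPM in both sorted libraries.

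Cell division genes were lower throughout the list. Of 22 tested, all had a negative log2 fold change (median -0.59) and none of the 22 overlapped between genotypes, though only Mki67 passed 2-fold. Mki67, the proliferation antigen Ki-67, was at 272, 272 and 234 CPM in WT and at 133, 140 and 102 CPM in Prmt1-dKO testes (log2 fold change -1.05, SE 0.14, edgeR adjusted p = 0.00229), and at -0.93 without Prmt1-dKO replicate 3. Top2a, topoisomerase II alpha, was at 377, 373 and 337 CPM against 218, 178 and 194 CPM (log2 fold change -0.88, edgeR adjusted p = 0.00205), and Plk1, a mitotic kinase, at 87.6, 76.4 and 76.7 CPM against 44.3, 45.2 and 36.3 CPM. Ccnb1 had the smallest change, -0.22. Background for such a count is that 19.9% of all genes tested had every Prmt1-dKO value below every WT value.

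Cytosolic ribosomal protein genes, a family chosen after its values were seen, took a larger share in Prmt1-dKO testes. They made up 4.13%, 3.96% and 4.6% of all counts in WT and 5.72%, 9.14% and 6.74% in Prmt1-dKO libraries (exact two-sided permutation test over 3 against 3 libraries, p = 0.1, the smallest this design allows). Of 84 genes 82 had a positive log2 fold change (median 0.74), 73 with an edgeR adjusted p below 0.05, against 10.6% of all genes tested that were higher at that threshold without the fold limit. With it 5 were called, a share near the 5.32% of all genes. The second Prmt1-dKO testis was again the highest. The 13 mitochondrially encoded genes took 2.63%, 3.01% and 2.77% of counts in WT and 2.92%, 2.38% and 3.28% in Prmt1-dKO libraries, with overlap (exact permutation p = 0.9).

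No gene of the heat shock (10 tested), unfolded protein (18), p53 target (18) or glucocorticoid and metallothionein (12) lists was called, with medians of -0.17, -0.19, 0.17 and 0.23. Within the unfolded protein list the chaperone Hspa5 was lower, at 547, 535 and 605 CPM in WT and 373, 410 and 306 CPM in Prmt1-dKO testes (log2 fold change -0.63, edgeR adjusted p = 0.011), while Ddit3 was higher, at 16, 13.4 and 16.3 CPM against 19.8, 32.0 and 26.8 CPM (log2 fold change 0.78, edgeR adjusted p = 0.0198). Immediate early genes gave 1 call among 20 and Hedgehog and Notch genes none among 14 and 15. Notch1 was at 100, 107 and 81.4 CPM against 70.2, 42.9 and 44.1 CPM (log2 fold change -0.88, edgeR adjusted p = 0.0167).

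**Figure D4:**
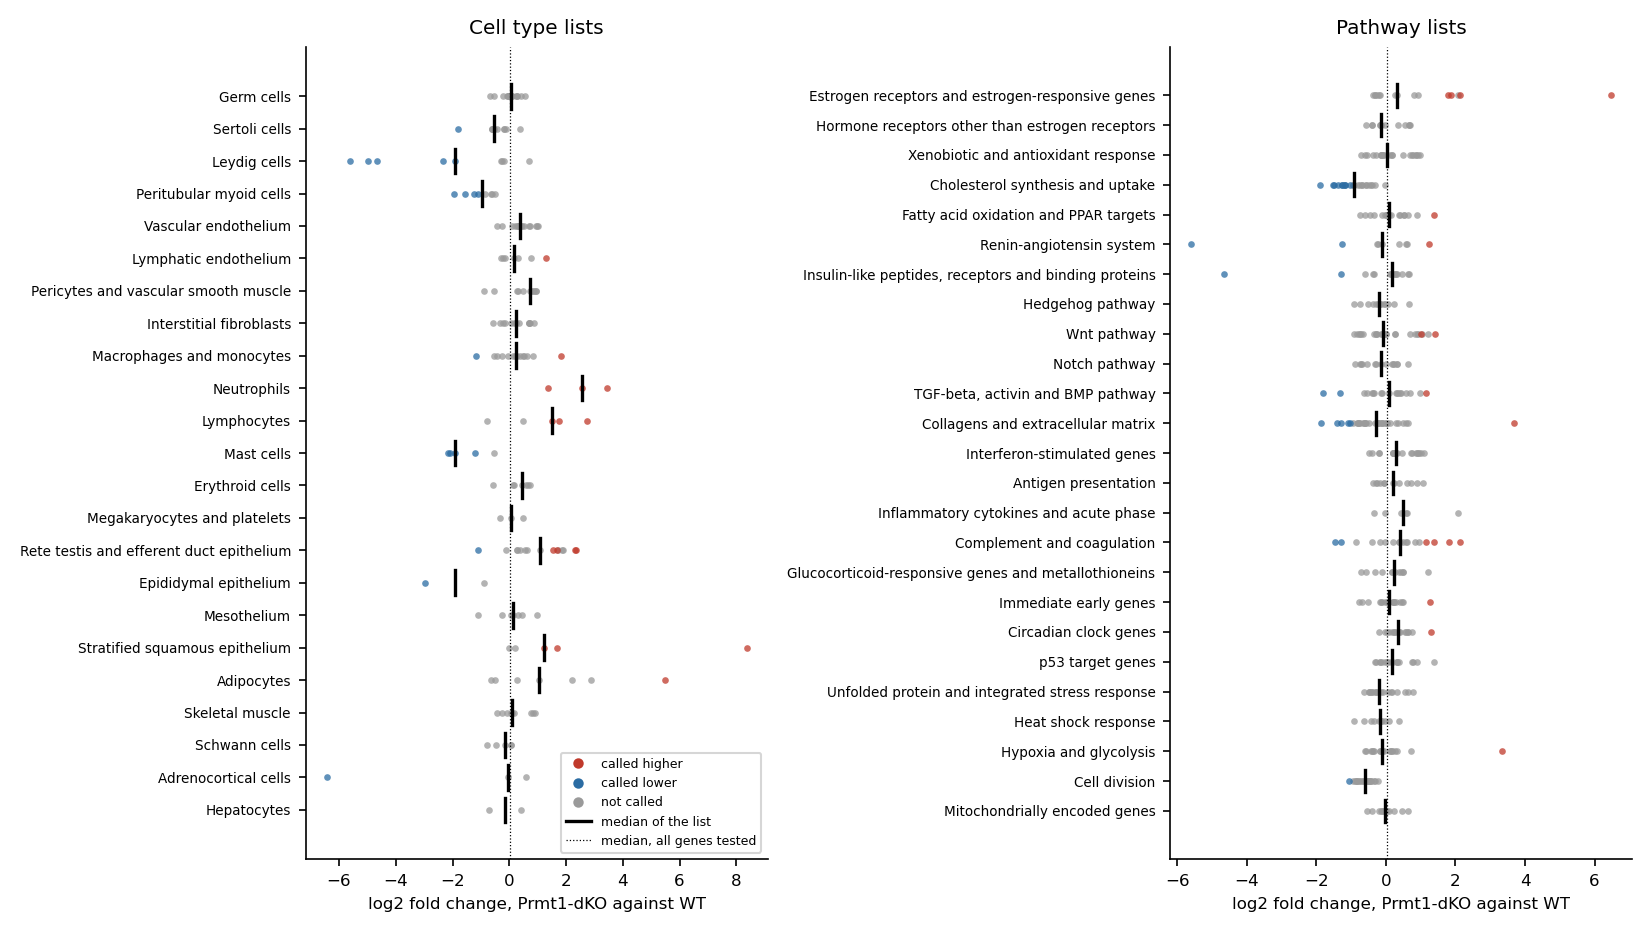
Log2 fold change of every tested gene of 23 cell type lists (left) and 25 pathway lists (right), with genes called higher in red, called lower in blue and not called in grey, the list's median as a bar and the median of all genes tested as a dotted line. Only the cholesterol, cell division and peritubular lists, with 7 or more genes tested, lie on one side of 0 in full.

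Calls were spread over the chromosomes, with exceptions. The X chromosome had 9 higher (1.36%) and 21 lower (3.17%) of 663 genes tested and a median log2 fold change of -0.09, the lowest share of higher calls and the highest share of lower calls among the nuclear chromosomes. Chromosome 6 had the largest share of higher calls among the autosomes, 76 of 825 genes (9.21%), and 14 lower. These included Hoxa2, Hoxa5, Hoxa7 and Hoxa9 of the HoxA cluster, which sets position along the body axis. Hoxa2 and Hoxa5 would not have passed the filter on the WT libraries alone. Over the 4 clusters 8 of 29 tested Hox genes were called higher and none lower (median 0.65), a family chosen after its values were seen, and summed Hox levels were 183, 177 and 198 CPM in WT and 231, 271 and 261 CPM in Prmt1-dKO testes.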

How the data were processed

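For bulk RNA-seq, poly(A) RNA of whole testis was primed with random hexamers. The authors trimmed reads with fastp 0.23.2, mapped them to mm10 and ran RSEM. The authors deposited unnormalized expected counts per gene. TPM, deposited in the same tables, are scaled per library and were used for levels per length, also in 2 libraries of sorted spermatogonia labelled WT. The sources used here do not give the RSEM version, its annotation or a strand setting. Of 55401 identifiers, 55141 matched GENCODE vM21 (GRCm38) without their version.

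Expected counts were rounded, filtered (filterByExpr, minimum count 10, minimum total 15), TMM-scaled and tested by edgeR 4.0.16 (R 4.3.3, quasi-likelihood, Benjamini-Hochberg, all 16554 genes, 3 against 3 libraries, no block). The fit was also run on simulated data, the outcome of which is not reported here. DESeq2 1.42.0, other scalings and filters and leaving out libraries were alternatives. Log2 values are fitted differences and CPM use TMM-scaled totals. Named genes were Prmt1, the 12 largest changes per direction (mean of at least 50 counts, no overlap), members of 23 cell type and 25 pathway lists, and up to 3 per biotype. Members and lists were chosen with earlier results of these data known. Promoters are RefSeq windows. Python 3.11.15 was used elsewhere. Marks in peak lists were not analysed here. Some members of the lists are counted but not reported here by name.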

Additional observations from a re-analysis of the deposited data

How the results depend on the processing

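DESeq2, which was run without the filter on low counts, called 1379 higher, edgeR without that filter 1777, and edgeR without the 2-fold limit 1749 higher and 1409 lower. Restricted to multi-exon protein-coding genes with a mean of at least 50 counts, added after seeing the data, the counts were 193 and 195. Leaving out each library gave 684 to 1048 higher and 199 to 401 lower genes, most lower genes without Prmt1-dKO replicate 2. Over the 12 alternatives with the fold limit, 357 of the higher and 139 of the lower calls were kept in every one. Same-numbered WT and Prmt1-dKO libraries did not deviate together (correlations of 0.082, -0.221 and -0.119). With 3 libraries per genotype this cannot decide whether same-numbered libraries belong together. The fit with a replicate block called 691 genes higher and 259 lower. Prmt1 kept its direction, at -0.40 (adjusted p = 0.0827) with upper-quartile factors, -0.50 (adjusted p = 0.0814) with the replicate block, and -0.63 to -0.41 with a library left out, where it stayed below an adjusted p of 0.05 only without Prmt1-dKO replicate 2. The difference in the share of counts from mitochondrially encoded genes, 0.059 percentage points, turned to -0.599 with summed TPM and spanned -0.151 to 0.299 with a library left out (-0.0261 without WT replicate 1). The median of all genes moved from 0.02 to 0.12 in edgeR without the filter and to 0.14 in DESeq2, both on 29847 genes. Medians of the Leydig, peritubular, mast cell, cholesterol and cell division lists kept their sign in every setting, from -2.07 to -1.12, -1.26 to -0.89, -2.06 to -1.71, -1.0 to -0.85 and -0.66 to -0.51. Lists with medians near 0, among them germ cells, xenobiotic response and Wnt, and small lists such as the epididymal and hepatocyte ones, changed sign in some settings. The counts of calls per biotype also moved in some settings. Of the named genes' values over these settings, 908 stayed on their side of the thresholds, 122 fell short of them (Prmt1 by its adjusted p alone) and none reversed.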
